A study of Mus musculus with 4 samples.

Results

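The 8 transcripts described here are Gas5, Snhg1, Snhg3, Snhg5, Snhg6, Snhg8, Snhg11 and Snhg12, long noncoding RNAs that carry small nucleolar RNAs (snoRNAs) within their genes. They were chosen by name, as the rows with these symbols, and make up 8 of the 40999 features counted in a complete stranded RNA-seq series of the embryonic mouse gonad. C57BL/6J wild-type embryos were used, with male (XY) and female (XX) gonads mixed in each pool, so a sex difference could not be examined. A pool held at least 6 gonads of each sex from 2 litters and gave 1 library per day, from embryonic day E11.5 to E14.5. The E11.5 pool was made of genital ridges with the mesonephros attached, while the later pools were gonads without it. Each day was compared with the day before it.

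snoRNAs guide the chemical modification of ribosomal and spliceosomal RNA. Those of the box C/D class direct ribose methylation, and those of the box H/ACA class direct pseudouridylation, in which a uridine is rearranged. Most vertebrate snoRNAs lie in introns of genes transcribed by RNA polymerase II: the host transcript is spliced, the intron is debranched and trimmed, and the snoRNA remains inside a ribonucleoprotein. Several hosts start with a terminal oligopyrimidine (TOP) tract, as mRNAs for ribosomal proteins do, and their spliced products are known substrates of nonsense-mediated decay. A snoRNA and its host are therefore made from one precursor but turn over separately.

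The counts came to between 25593453 and 31752562 reads per library, so that 3 counts, the floor up to which a count of 0 is read here, were 0.0945 to 0.117 CPM, counts scaled by the library total. With 1 library per day there is no replicate check: all intervals below cover counting error only, and every comparison is between libraries, not between populations of embryos. The E14.5 library stood apart from the other 3. When it was set against E13.5 by total counts, the median gene fell by 1.07 on the log2 scale, and the shift was 0.16 for E12.5 and 0.03 for E13.5. The fold changes below therefore use the trimmed mean of M values (TMM), which places the median gene near 0. Markers of somatic and germ cells of the gonad were present in every library, with summed TPM (counts per exon length, scaled to a common total) of 291 for 5 somatic markers and 27.2 for 5 germ cell markers at E11.5.

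GENCODE M21 places 29 snoRNA loci inside the 8 hosts on the same strand, and 10 of them have a row of their own in the count files. Gas5, on chr1:161035166-161038537, holds 9 loci. Snhg1, the host of the U22 snoRNA Snord22, lies on chr19:8723487-8726326 and holds 8. Snhg12 holds 4, Snhg3, Snhg5 and Snhg11 hold 2 each, and Snhg6 and Snhg8 hold 1 each. By their letters, 17 of the 29 had a C box TGATGA in the first 25 bases with a D box CTGA in the last 20, and 7 longer than 100 bases had ACA in the last 9. The other 5 matched neither pattern. The searches ran on the transcribed strand only, and no match says only that these letters were not found there.

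The exon blocks that the authors counted were not alike among the 8 hosts. Snhg1 was counted over 476 exon bases in 10 short blocks, and its 8 snoRNA loci all lay in introns. Gas5 was counted over 2554 exon bases, of which 93.3% were 1 block of 2382 bases at chr1:161035166-161037547. That block takes in 6 snoRNA loci whole, so the Gas5 row is not a measure of the spliced transcript alone. Snhg8 is 1 block of 785 bases that holds the H/ACA locus Snora24 whole. The remaining 22 loci were intronic, and none of the 8 hosts shared exon bases with any row other than Snora24.

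**Figure D1:**
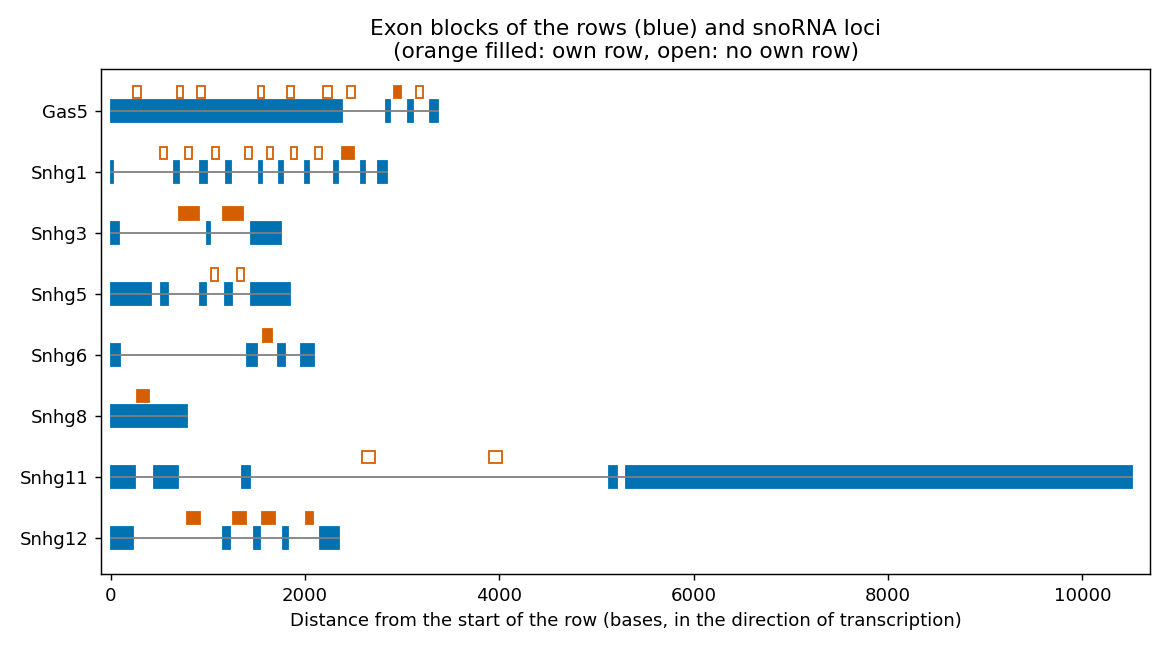
Blue boxes are the exon blocks counted for each host and orange boxes are snoRNA loci, filled where the locus has its own row, against the distance in bases from the start of the row in the direction of transcription. The long first block of Gas5 covers 6 loci, and Snhg8 is 1 block over Snora24.

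The sequences below are from the GENCODE M21 transcripts (GRCm38, also called mm10), with the C and D boxes or the ACA in capitals. The first 5 are intronic snoRNAs of 5 hosts whose levels are compared with their host below. Snord47 lies at chr1:161038082-161038158 in Gas5, Snord22 at chr19:8725866-8725991 in Snhg1, Snord87 at chr1:9942463-9942549 in Snhg6, Snora61 at chr4:132310240-132310369 in Snhg12 and Snora73a at chr4:132352775-132352979 in Snhg3. Snord22 matched neither pattern and is shown without capitals. Some counted rows were shorter than the loci printed. They spanned 62 bases for Snora61, 65 for Snord47 and 74 for Snord87, against loci of 130, 77 and 87 bases.
Snord47: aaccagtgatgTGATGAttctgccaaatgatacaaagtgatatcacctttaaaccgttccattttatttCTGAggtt
Snord22: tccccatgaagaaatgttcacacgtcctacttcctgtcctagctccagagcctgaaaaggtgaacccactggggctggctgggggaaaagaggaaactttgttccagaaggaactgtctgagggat
Snord87: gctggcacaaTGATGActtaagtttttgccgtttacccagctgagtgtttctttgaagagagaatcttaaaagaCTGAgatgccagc
Snora61: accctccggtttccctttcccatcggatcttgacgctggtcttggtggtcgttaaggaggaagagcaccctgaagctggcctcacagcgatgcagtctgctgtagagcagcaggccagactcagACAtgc
Snora73a: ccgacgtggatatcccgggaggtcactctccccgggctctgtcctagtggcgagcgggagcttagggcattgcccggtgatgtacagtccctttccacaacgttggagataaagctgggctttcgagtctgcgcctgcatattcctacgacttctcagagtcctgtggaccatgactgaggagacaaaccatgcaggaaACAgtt

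The next 3 are C/D loci inside the long exon block of Gas5, shown because reads from them can enter the count of the host itself. They lie on the plus strand at chr1:161035394-161035473 (Gm26224), chr1:161036057-161036139 (Gm22357) and chr1:161037356-161037439 (listed as Mir5117).
Gm26224: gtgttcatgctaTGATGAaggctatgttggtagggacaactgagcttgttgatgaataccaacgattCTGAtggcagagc
Gm22357: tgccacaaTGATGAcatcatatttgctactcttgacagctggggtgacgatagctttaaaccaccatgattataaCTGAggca
Mir5117: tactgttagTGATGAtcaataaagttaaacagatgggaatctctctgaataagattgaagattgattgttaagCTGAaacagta

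RefSeq promoters (GRCm38.p6) whose start equals the start of the row were found for 6 hosts. They are shown from 40 bases before the start over 60 bases because TOP transcripts begin in a run of pyrimidines. Capitals mark the longest run of C or T that reaches within 5 bases of the start, and TATA where it lies between 40 and 20 bases before it.
Gas5: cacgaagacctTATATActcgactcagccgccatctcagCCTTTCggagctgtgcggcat
Snhg1: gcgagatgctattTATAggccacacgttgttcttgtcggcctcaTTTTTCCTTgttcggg
Snhg3: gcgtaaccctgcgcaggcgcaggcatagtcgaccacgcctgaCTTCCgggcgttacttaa
Snhg5: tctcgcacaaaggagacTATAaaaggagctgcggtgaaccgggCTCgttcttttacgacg
Snhg8: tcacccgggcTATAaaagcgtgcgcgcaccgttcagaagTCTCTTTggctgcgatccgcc
Snhg12: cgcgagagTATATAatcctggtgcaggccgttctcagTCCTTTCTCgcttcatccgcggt

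These windows lie at chr1:161035126-161035185, chr19:8723447-8723506, chr4:132353667-132353726, chr9:88522878-88522937, chr3:123508317-123508376 and chr4:132308638-132308697, in the order printed, with Snhg3, Snhg5 and Snhg8 on the minus strand. TATA, which reads the same on both strands, was found in 5 of the 6 and in 5.49% of the 32851 promoters of the table. The pyrimidine run was 9 bases in Snhg1 and Snhg12, a length that 6.89% of promoters reached. It was 7 bases in Snhg8, 6 in Gas5 and 5 in Snhg3, lengths that 14.1%, 21.02% and 32.9% of promoters reached. Snhg5 had 3, which 67.8% reached. The runs of Gas5, Snhg8 and Snhg12 held the start base, while those of Snhg1, Snhg3 and Snhg5 began downstream of it. The RefSeq start of Snhg11 was 75 bases from the start of its row, and its window is not shown.

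Gas5, named for its accumulation in growth-arrested cells, was the most abundant host in every library. Its TPM, the scale per exon length used here to compare hosts, ran 318, 221, 202 and 135 over the 4 days. Snhg1 came next with 128, 134, 157 and 47.5 TPM. Gas5 thus lay above Snhg1 on all 4 days, by the most at E11.5 and at E14.5.

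Snhg6, the host of Snord87, followed with 69.5, 84.9, 101 and 32.4 TPM. Snhg5, the host of the U50 snoRNAs Snord50a and Snord50b, had 52.3, 51.2, 54.5 and 19.3 TPM. Snhg12 had 32.9, 45.9, 51.5 and 14.3 TPM. Snhg5 and Snhg12 did not differ beyond counting error at E12.5 and E13.5, where the 95% interval of their log2 ratio held 0, and differed on the first and last day.

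Snhg8 had 23.8, 28.2, 32.3 and 11.2 TPM. Snhg3, the host of the U17 snoRNAs Snora73a and Snora73b that act in 18S ribosomal RNA processing, had 20.8, 26.5, 29.2 and 8.55 TPM. Snhg8 and Snhg3 did not differ beyond counting error from E11.5 to E13.5, and at E14.5 Snhg8 was 1.30-fold higher, with a log2 ratio of 0.38 (0.05 to 0.71). All other neighbours in the order differed beyond counting error on every day. Snhg11, known as a transcript of neurons, was far below the others at 3.89, 1.81, 1.84 and 0.613 TPM. Every host was lowest in TPM at E14.5, the library in which the median gene was shifted too, so these values by themselves do not order the days.

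**Figure D2:**
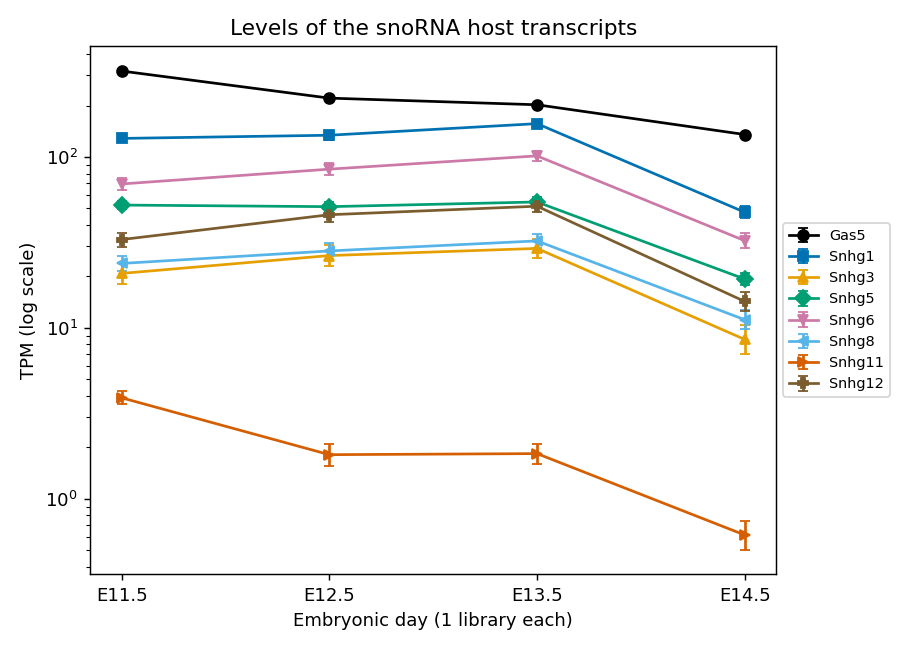
TPM on a log axis of each host in the 4 libraries, with exact Poisson 95% intervals of the counts as bars. Gas5 was highest and Snhg11 lowest on every day, and all 8 hosts were lowest in TPM at E14.5.

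As reads, the 8 hosts summed to 22778, 13120, 14751 and 11958 counts, in the order of the days. Gas5 made up 79.3% of the first sum, 71.8% of the second, 67.3% of the third and 81.2% of the last, with Wilson 95% bounds of 78.7 to 79.8, 71.0 to 72.5, 66.5 to 68.0 and 80.5 to 81.9. The share of Gas5 thus fell over the first 3 libraries and was highest in the last. Any sum over the 8 rows is for the most part a measure of Gas5, and hosts are described singly below.

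From E11.5 to E12.5, when the gonad commits to a testis or an ovary, 1 of 8 hosts changed at least 2-fold: Snhg11 fell. Among all 19215 features kept in this comparison 17.8% changed at least 2-fold, and among those with a mean of at least 100 counts over both libraries, as all 8 hosts had, 9.96% did. The count among hosts was therefore near the background. Snhg11 had 507 counts at E11.5, then 177, 207 and 101. Its log2 fold change at E12.5 was -1.39 (95% interval -1.65 to -1.14). Reads of Snhg11 relative to those of the 6 hosts other than Gas5 fell by 1.26 on the log2 scale, a value that no library scaling can move. A lower share of cells that express Snhg11 and less Snhg11 RNA per cell cannot be told apart in these pools.

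The mesonephros was left out of the dissection at this step, and most neuron, nephric and macrophage markers fell with Snhg11. Of 10 neuron markers 9 fell at least 2-fold, with a median log2 fold change of -2.47, and their summed level went from 30.5 to 6.05 TPM. Dbh, which makes noradrenaline, went from 315 counts to 3. Of 8 mesonephric and nephric markers 6 fell, with a median of -3.09, and their summed level went from 83.1 to 19.8 TPM. Of 3 macrophage markers 2 fell. Markers of glia and neural crest did not follow as a group: 1 of 3 fell at least 2-fold, and their summed level went from 8.61 to 12.1 TPM. Sox10 of this list rose from 201 to 364 counts. Markers of the gonad itself went up at the same step: 3 of 5 somatic markers rose at least 2-fold, with a summed level of 291 and then 511 TPM, 4 of 5 germ cell markers, from 27.2 to 254 TPM, and 2 of 3 Sertoli cell markers, from 32.0 to 369 TPM. The part of these cells in the changes of Snhg11 and Gas5 was not tested.

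The 5 genes nearest to Snhg11 over the 3 log2 fold changes, among 11640 genes that reached 100 counts in each of the libraries, were Kif5c, Ptplad2, Meis1, Nrp1 and Unc5c. Kif5c, a kinesin heavy chain of neurons, was closest at a Euclidean distance of 0.07, and its log2 fold changes were -1.45, -0.13 and 0.02 against -1.39, -0.11 and 0.05 for Snhg11. Nrp1 and Unc5c encode receptors for guidance cues. Whether the 5 genes share a cell type was not tested.

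Gas5 went from 18053 counts at E11.5 to 9414 at E12.5, a log2 fold change of -0.81 (95% interval -0.85 to -0.78), which is 1.75-fold lower and short of 2-fold. Snhg5 had 1174 and 863 counts, a log2 fold change of -0.32 (-0.44 to -0.19). Snhg1 had 1357 and 1064 counts, a log2 fold change of -0.22 (-0.34 to -0.11). These 3 intervals lay below 0, and that of Snhg12, with 442 and 464 counts, lay just above it at 0.20 (0.01 to 0.39). Snhg3, with 202 and 193 counts, Snhg6, with 628 and 576, and Snhg8, with 415 and 369, had intervals that held 0. Relative to the summed reads of the other 7 hosts, Gas5 had a log2 change of -0.59 (-0.66 to -0.52). Its fall was larger than that of the sum beyond counting error, while Snhg11 singly fell further, at -1.39 (-1.65 to -1.14).

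From E12.5 to E13.5 none of the 8 hosts changed at least 2-fold, where the background was 5.27% of all features and 1.13% of those with that mean count. The log2 fold changes ran from -0.26 to 0.13. Only the interval of Gas5, with 9414 and 9924 counts, excluded 0, at -0.26 (-0.30 to -0.22). Counts of the other 7 hosts rose with the deeper library, such as Snhg1 from 1064 to 1434 and Snhg6 from 576 to 794, by amounts that the scaling removed within counting error. The calls use no p-value, since 1 library per day gives no spread. By edgeR's exact test at preset biological coefficients of variation of 0.1, 0.2 and 0.4, the number of hosts called was 0 as well.

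From E13.5 to E14.5, when germ cells enter meiosis in the ovary and arrest in the testis, 1 of 8 hosts changed at least 2-fold: Gas5 rose on the TMM scale, though not by total counts. The background was 8.95% of all features and 3.15% of those with that mean count, and 1 host of 8 is too few to set apart from these shares. Gas5 had 9924 and 9710 counts, and the TMM-scaled log2 fold change was 1.06 (95% interval 1.02 to 1.10), or 2.08-fold. The direction depends on the scaling, with -0.02 by total counts and -0.58 as the ratio of the deposited TPM. Reads of Gas5 relative to the other 7 hosts, which need no scaling, rose by 1.07 (0.99 to 1.15), or 2.10-fold.

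The other 7 hosts all had fewer reads at E14.5. Snhg1 went from 1434 to 635 counts, Snhg5 from 1060 to 548 and Snhg6 from 794 to 370. Snhg12 went from 600 to 243, Snhg8 from 487 to 246, Snhg3 from 245 to 105 and Snhg11 from 207 to 101. These falls were about the size of the shift of the median gene. After TMM scaling the log2 fold changes of these 7 hosts ran from -0.21 (Snhg12) to 0.14 (Snhg5), and all 7 intervals held 0. By total counts they ran from -1.29 to -0.94.

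**Figure D3:**
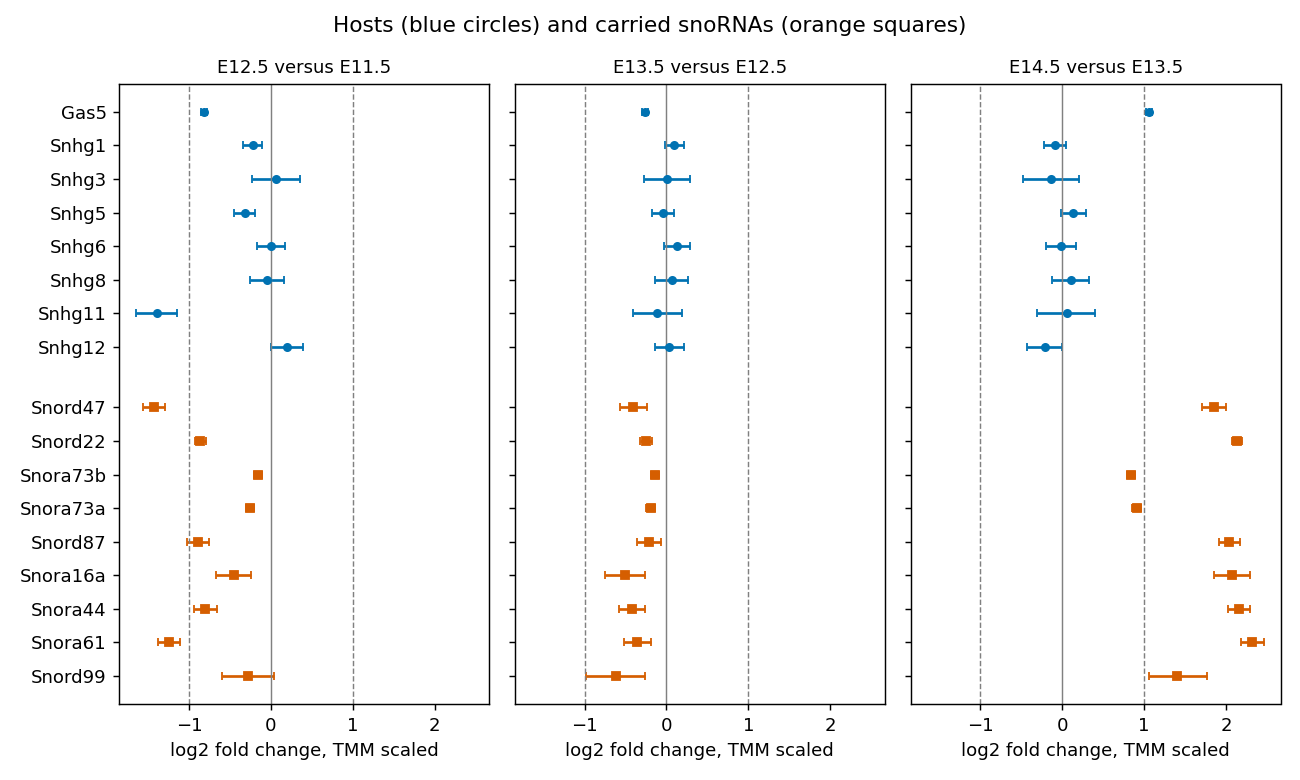
TMM-scaled log2 fold change of each host (blue circles) and carried snoRNA (orange squares) for the 3 comparisons, with exact Clopper-Pearson 95% intervals and dashed lines at 2-fold. Hosts other than Snhg11 at E12.5 and Gas5 at E14.5 stay within the dashed lines, while 7 of 9 snoRNAs pass them at E14.5. By total counts all 8 hosts, Snora73a and Snora73b lie below 0 in that comparison.

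At E14.5 the carried snoRNAs were higher on the TMM scale, Snord47 together with its host Gas5 and the others beside hosts whose intervals held 0. Of 10 snoRNA rows inside the hosts, 9 had counts, and 7 of these 9 rose at least 2-fold, as did 6.44% of all features. By total counts 3 of the 9 reached 2-fold, and by the ratio of the deposited TPM 0 did. Snord47 of Gas5 had 1872, 637, 608 and 1034 counts over the 4 days. Its log2 fold changes were -1.43 (-1.56 to -1.30), -0.40 (-0.57 to -0.24) and 1.86 (1.71 to 2.003), down in the first and second comparison and up in the third. Consecutive comparisons share a library, E12.5 in one case and E13.5 in the other.

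Snord22 of Snhg1, a box C/D snoRNA of 126 bases, had 5996, 3025, 3212 and 6613 counts, and its reads per exon length were 2144 TPM at E11.5 and 1868 at E14.5. Its log2 fold change at E14.5 was 2.13 (2.07 to 2.19), against -0.09 (-0.22 to 0.05) for Snhg1. Snord87 of Snhg6 had 1417, 702, 765 and 1478 counts, and its log2 fold change at E14.5 was 2.04 (1.91 to 2.17), against -0.01 (-0.19 to 0.17) for Snhg6. Both snoRNAs thus rose on the TMM scale at E14.5 beside hosts whose intervals held 0.

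Snhg12 carried 4 counted snoRNAs, 3 of the H/ACA name and 1 of the C/D name. Snora61 had 1577, 610, 601 and 1411 counts, Snora44 had 1286, 677, 637 and 1339, and Snora16a had 441, 295, 262 and 517. Their log2 fold changes at E14.5 were 2.32, 2.16 and 2.07, with overlapping intervals. Snord99, which had 194, 147, 121 and 151 counts, rose by 1.41 (1.05 to 1.77), below the interval of Snora61 (2.18 to 2.46). On the TMM scale the 4 snoRNAs of 1 precursor thus rose together at E14.5 but not by the same amount. The rows counted spanned 62 bases for Snora61, 117 for Snora44, 136 for Snora16a and 56 for Snord99. Their loci span 130, 129, 137 and 74 bases.

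Snora73b and Snora73a of Snhg3 changed less than the others, with 7933, 6536, 7511 and 6337 counts and 7192, 5514, 6087 and 5377 counts. They are 96.6% identical, differing at 7 of 205 bases, and reads of one may have been counted for the other, so their sum is used against the host. At E14.5 their log2 fold changes were 0.84 (0.80 to 0.89) and 0.91 (0.86 to 0.96), the only 2 of the 9 under 2-fold. By total counts they were -0.24 and -0.17, while the other 7 stayed above 0, from 0.33 for Snord99 to 1.24 for Snora61. As TPM ratios Snord99 too lay below 0, at -0.23. Snora24, inside the single exon block of Snhg8, had 0 counts in every library. Its bases belong to both rows, and how reads on such bases were assigned is not given in the sources used here.

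Reads of a snoRNA per read of its host put both RNAs of 1 precursor on one scale within a library, so that library scaling cancels. Snord22 had 4.42, 2.84, 2.24 and 10.4 reads per read of Snhg1. Snord87 had 2.26, 1.22, 0.963 and 3.99 per read of Snhg6. The 4 snoRNAs of Snhg12 had 7.91, 3.73, 2.70 and 14.1 per read of their host. In each of these 3 hosts the ratio was lowest at E13.5 and highest at E14.5.

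The 2 snoRNAs of Snhg3 had 74.9, 62.4, 55.5 and 112 reads per read of the host. Snord47 had 0.104, 0.0677, 0.0613 and 0.106 reads per read of Gas5. This ratio too was lowest at E13.5, and its E14.5 value was close to that of E11.5. The Gas5 row spans 2554 exon bases with 6 other snoRNA loci inside, so the level of its ratio cannot be set beside that of the other hosts. Levels among those hosts are not comparable either. Only 1 of the 8 loci of Snhg1 was counted, against 4 of 4 in Snhg12 and 2 of 2 in Snhg3.

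From E13.5 to E14.5 the snoRNA reads gained on the host reads in all 5 hosts. The log2 change of the ratio was 2.38 (95% interval 2.15 to 2.61) for Snhg12, 2.22 (2.07 to 2.36) for Snhg1 and 2.05 (1.83 to 2.27) for Snhg6. It was 1.01 (0.68 to 1.34) for Snhg3 and 0.80 (0.65 to 0.95) for Gas5. The intervals of the first 3 lay above those of the last 2, and within each group they overlapped. The Gas5 row can take in reads from the 6 snoRNA loci of its long block. Its change is therefore not a like measure beside those of the other hosts. The median of the 5 was 2.05, and it was 2.13 without Gas5.

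From E11.5 to E12.5 the ratio went the other way. The log2 change was -1.09 (-1.29 to -0.88) for Snhg12, -0.89 (-1.10 to -0.68) for Snhg6, -0.64 (-0.77 to -0.50) for Snhg1 and -0.62 (-0.75 to -0.48) for Gas5. For Snhg3 the change was -0.26 (-0.55 to 0.02), and its interval held 0. The median was -0.64.

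From E12.5 to E13.5 the ratio changed by -0.46 (-0.66 to -0.26) for Snhg12, -0.34 (-0.48 to -0.21) for Snhg1 and -0.34 (-0.55 to -0.13) for Snhg6. For Gas5 and Snhg3 it changed by -0.14 and -0.17, and both intervals held 0. The median was -0.34.

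**Figure D4:**
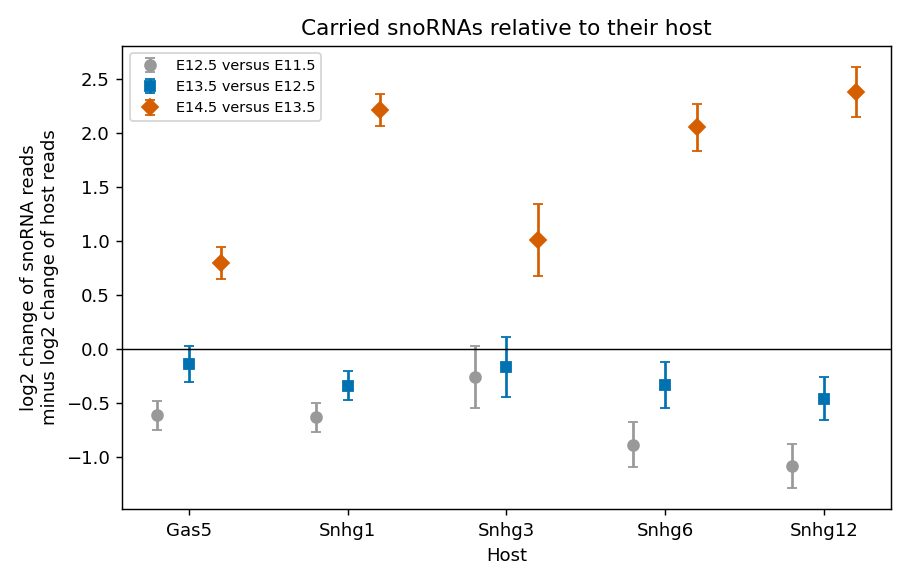
Log2 change of the summed snoRNA reads minus log2 change of the host reads for the 5 hosts with counted snoRNAs, with Wald 95% intervals from the counts. Gas5, Snhg1 and Snhg6 have 1 counted snoRNA each. All 5 values lie above 0 for E14.5 versus E13.5, from 0.80 for Gas5 to 2.38 for Snhg12. The exon blocks of the Gas5 row hold 6 snoRNA loci, so its value is not a like measure.

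Other snoRNA rows moved in the same direction as the carried ones. Of 104 snoRNA rows outside the hosts that were kept, 78 rose at least 2-fold at E14.5 on the TMM scale and 0 fell. The share of all features that rose was 6.44%. The median log2 fold change of these rows was 1.498, beside 2.04 for the 9 carried rows. By total counts the median gene lay at -1.07 in this comparison. At E12.5, 18 of 103 and 2 of the 9 carried rows fell at least 2-fold, as did 9.11% of all features, with medians of -0.63 and -0.80. The 9 carried rows were thus not set apart from other snoRNAs by direction, and no difference between them was tested.

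In its pattern Gas5 lay close to rows of several kinds. The 5 genes nearest to it over the 3 log2 fold changes were Mrm1, which encodes a mitochondrial ribosomal RNA methyltransferase, the tRNA row n-Ts12, Ap1s2, and the box C/D snoRNA rows Snord49a and Snord55. Mrm1, the nearest at a Euclidean distance of 0.10, had log2 fold changes of -0.85, -0.25 and 1.15. Snord49a, at a distance of 0.19, had -0.65, -0.33 and 1.15, beside -0.81, -0.26 and 1.06 for Gas5. The part of snoRNA reads from the long exon block in the Gas5 count was not tested, since the block is 1 number in the files.

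Genes with a snoRNA locus whole inside an exon block did not all rise at E14.5. Outside the hosts, 9 such genes reached 100 counts in each library. Their median log2 fold change was 0.07, and 1 of them rose at least 2-fold: 5730408K05Rik, named after its values were seen, at 1.09. Taf1d, with 5 of 8 loci in exon blocks, was at 0.28. Snhg8, with its exonic Snora24, was at 0.10 (-0.12 to 0.33). Among 226 genes with intronic loci only, the median was -0.06 and 1 rose.

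Other noncoding snoRNA hosts also stayed within 2-fold. Of 14 on the list, some known in the files by an older symbol, 12 were listed, and 0 of 12 changed at least 2-fold in any of the 3 comparisons. Their median log2 fold changes were -0.18, -0.07 and -0.16. The 12 and their medians include Mir17hg, which carries no snoRNA and was listed for comparison, at -0.61, -0.20 and -0.15. Snhg17 (listed as 9430008C03Rik) had a log2 fold change of -0.30 at E14.5. Zfas1 (listed as 1500012F01Rik) had 924, 757, 1038 and 474 counts and a log2 fold change of -0.04 (-0.20 to 0.12) at E14.5. Snhg9, with 79, 60, 53 and 47 counts, came nearest to 2-fold at E14.5, at 0.91 (0.32 to 1.51).

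Protein-coding hosts, most of them genes of ribosomal proteins and of translation factors, were flat on the same scale. Of 29, 0 changed at least 2-fold in any comparison, and the medians were 0.07, -0.03 and -0.03. Rpl4 had log2 fold changes of 0.20, -0.04 and -0.01, and Hspa8, a heat shock cognate chaperone whose introns carry C/D snoRNAs, had 0.14, 0.00 and -0.07. TOP mRNAs outside the ribosomal proteins had medians of 0.05, -0.05 and 0.00, with 0 of 18 past 2-fold. Eef1a1, the abundant elongation factor of this group, had -0.04, 0.00 and 0.03, and Eef2 had 0.06, -0.02 and 0.01.

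The machinery that builds snoRNPs from these introns was also within 2-fold throughout. Of the 4 box C/D core proteins 0 changed, with medians of 0.08, -0.04 and -0.11, and fibrillarin (Fbl), the methyltransferase, was at -0.07 at E14.5, Nop56 at -0.15 and Nop58 at -0.29. Of the 4 box H/ACA core proteins 0 changed, with medians of 0.17, -0.18 and -0.08, and dyskerin (Dkc1), the pseudouridine synthase, was at -0.15 at E14.5 and Nop10 at 0.20. Of 10 assembly factors on the list that were in the files 0 changed, with a median of -0.05 at E14.5. Nolc1, a nucleolar chaperone of snoRNPs, was at -0.32 and the ATPase Ruvbl2 at -0.05.

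The pathways that degrade the spliced host and trim the intron gave the same picture. Of 14 genes of intron turnover and the exosome 0 changed, with medians of 0.00, -0.04 and -0.13. The nuclear exonuclease Xrn2 was at -0.17 at E14.5, its cytoplasmic relative Xrn1 at -0.16 and Exosc10, the nuclear exosome nuclease, at -0.07. Of 14 genes of nonsense-mediated decay 0 changed, with medians of 0.05, -0.04 and -0.07. Upf1, its central helicase, was at -0.03 and Smg1, the kinase that acts on it, at -0.08 at E14.5.

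**Figure D5:**
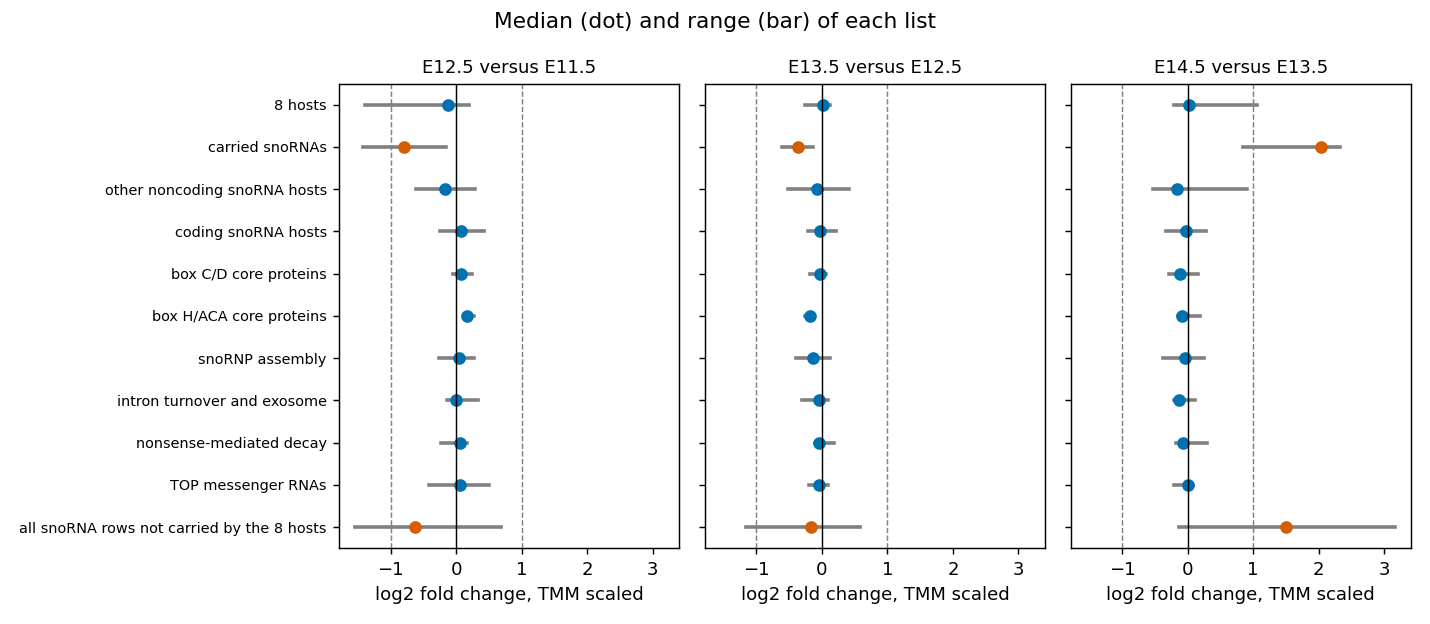
Median (dot) and range (bar) of the TMM-scaled log2 fold changes of each list in the 3 comparisons, with dashed lines at 2-fold. The lists of hosts and of snoRNP proteins have medians between -0.18 and 0.17, while the snoRNA rows have medians of 2.04 (carried) and 1.498 (not carried) at E14.5.

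The median of the 8 hosts was -0.13, 0.02 and 0.02 over the 3 comparisons. The 5 genes nearest to this pattern were Fn3krp, Gins1, Slk, 5730455P16Rik and Brf1, at Euclidean distances of 0.01 to 0.03. Brf1 encodes a subunit of the RNA polymerase III initiation factor TFIIIB, and Gins1 a subunit of the replicative helicase. A pattern near 0 in every comparison is common, and nearness to it says little about a gene.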

How the data were processed

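Total RNA was depleted of ribosomal RNA with probes and RNase H, fragmented, tailed with poly(A) and made into stranded libraries with UMIs. The authors trimmed the reads, aligned them to mm10 with STAR, removed duplicates with UMI-tools and made the deposited counts per gene with featureCounts. Tool versions, the annotation release and the treatment of reads with several positions are not given in the sources used here. The deposited RPKM values were not used. The deposited TPM values were made by the authors from the counts and exon lengths, and 100% of them equalled those recomputed here within 1e-06 of the value plus 1.

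The members and gene lists were chosen with earlier results of these data known. All 8 members, every carried snoRNA row with at least 10 counts in every library, 2 or more of the most abundant members of each gene list and the 5 genes nearest in pattern are named. Cell type markers are given as counts. Dbh, Snhg9, Taf1d, Exosc10, Upf1 and 5730408K05Rik were picked outside it, with their values already known. A count of 0 was read as up to 3 counts, a one-sided limit that is lower than the upper Poisson bound. Features kept by filterByExpr in each of the 3 comparisons were scaled by TMM in edgeR 4.0.16 (R 4.3.3), with a prior count of 0.125 and a call at |log2 fold change| of at least 1. This is the fold part of the study's rule. An FDR needs an estimate of spread, which 1 library per group cannot give. Exact Poisson (levels), Clopper-Pearson (fold changes), Wilson (shares) and Wald (ratios) 95% intervals cover counting error only. A list symbol absent from the files was looked up through its RefSeq synonyms.

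Alternatives were DESeq2 1.42.0 size factors, total counts, TMM from genes with at least 1000 counts, the TPM ratio, other filters, prior counts and folds, and edgeR's exact test at preset dispersions. Scripts were tested on simulated data. Python was version 3.11.15, with pandas 2.3.3 for tables, numpy 2.4.6 and scipy 1.17.1 for intervals, and matplotlib 3.10.9 for plots. Samples were grouped by their titles, and 0 columns belonged to other samples. The UMI counts limit counting error, and the reads were not realigned.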

Additional observations from a re-analysis of the deposited data

How the results depend on the processing

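No paired analysis was possible because each day has 1 library and no replicate numbers. At E12.5 the number of hosts called, 1, became 2 at a fold of at least 1.5 (Gas5 joins Snhg11), 0 at a fold of at least 4 and 0 by edgeR's exact test at a biological coefficient of variation of 0.4. At E14.5 the number, 1, became 5 by total counts and 7 by the ratio of the deposited TPM, all falls of hosts other than Gas5. It became 0 by the exact test at coefficients of 0.2 and 0.4 and 0 at a fold of at least 4. The log2 fold change of Gas5 at E14.5, 1.06, reversed to -0.0216 by total counts and to -0.58 by the TPM ratio. The move to total counts is that of the median gene, -1.07. At E13.5 the number stayed 0 under every alternative run. DESeq2 size factors and a prior count of 2 moved none of the 8 hosts beyond its counting interval in any comparison. For the medians of snoRNAs minus host, a minimum of 50 counts, the median over single snoRNAs and the deposited TPM left the value as it was. The minimum removed no snoRNA and the TPM ratio cancels, so neither could move it. The median over single snoRNAs could change only the values of Snhg3 and Snhg12, as Gas5, Snhg1 and Snhg6 had 1 counted snoRNA each. The median host was Snhg1 or Snhg6 in every comparison, so that alternative had little room to move the medians. Without Gas5, added after the data were seen, the medians were -0.76, -0.34 and 2.13. Of the 9 carried snoRNAs, 7 were called at E14.5 by TMM, 3 by total counts and 0 by the TPM ratio.

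With 1 library per day, a difference between pools, dissections or library preparations and a difference between days cannot be told apart. Of the 29 snoRNA loci 19 have no row and were not analysed here. Counting error was smallest for Gas5 and largest for Snhg11 and Snhg3, which had 101 and 105 counts at E14.5.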
